A study of Mus musculus with 54 samples.

Results

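The HoxD cluster holds 9 Hox genes, Hoxd1, Hoxd3, Hoxd4, Hoxd8, Hoxd9, Hoxd10, Hoxd11, Hoxd12 and Hoxd13, and all 9 were found among the 55401 genes of the deposited count table. They were chosen by name. In GENCODE M21 on GRCm38 they lie on the plus strand of chromosome 2 between positions 74668310 and 74765142, a stretch of 96.8 kb. Hoxd13 (74668310 to 74671599) stands first on that strand, followed by Hoxd12, Hoxd11, Hoxd10, Hoxd9 (74697727 to 74700208), Hoxd8 (74704615 to 74707933), Hoxd4, Hoxd3 and, last, Hoxd1 (74762980 to 74765142).

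Hox genes encode homeodomain transcription factors that give cells their position along the body axis. Genes at the Hoxd1 end of the cluster are known to be used early and anteriorly and to respond quickly to retinoic acid, and genes at the Hoxd13 end late, in the tail, limb and genital buds. In undifferentiated embryonic stem cells the cluster is a classical target of Polycomb repressive complex 2 (PRC2), whose catalytic subunit EZH2 places the repressive methyl marks on lysine 27 of histone H3.

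RNA sequencing counts were available for 8 lines of mouse embryonic stem cells, each undifferentiated (called mESC) and after brief differentiation (called ATRA), in which 2i and LIF were withdrawn and all-trans retinoic acid was given, with 3 libraries per line and state and 48 in all. The lines were parental cells, whose library names carry flfl; heterozygous cells (het), Ezh2fl/∆, which have lost an Ezh2 allele; and 6 lines made from the heterozygous cells by expressing EZH2 of wild-type sequence (WT) or EZH2 with the change A677T, R679C, K634E, K563E or A733T. All 6 therefore share the Ezh2 deletion with het and differ from parental by it. The series is on Weaver syndrome, an overgrowth syndrome caused by EZH2 variants. A677T, R679C, K634E and K563E were taken as Weaver variants, and A733T as the growth restriction-associated variant that the series design mentions, which the labels do not name. The sources used here give neither the promoter that drives the added EZH2 nor the number of clones, the dose of ATRA or its duration, and nothing says that replicates are separate cultures, so p-values measure only the spread between these libraries.

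The sequence just before the start of 4 members is shown because these genes carried most of the called differences between lines. Each line gives the 250 bases before the RefSeq start on the plus strand of GRCm38.p6, 5′ to 3′, in lower case, with capitals at a TATA box (TATAAA) or the core motif of retinoic acid receptors (AGGTCA), searched on both strands.
Hoxd13, chr2:74667975-74668224: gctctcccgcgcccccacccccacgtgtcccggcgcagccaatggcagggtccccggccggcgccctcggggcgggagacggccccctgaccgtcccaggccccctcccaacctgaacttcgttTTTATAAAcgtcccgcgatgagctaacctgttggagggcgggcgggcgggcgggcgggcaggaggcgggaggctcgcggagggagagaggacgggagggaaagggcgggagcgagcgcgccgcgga
Hoxd9, chr2:74697513-74697762: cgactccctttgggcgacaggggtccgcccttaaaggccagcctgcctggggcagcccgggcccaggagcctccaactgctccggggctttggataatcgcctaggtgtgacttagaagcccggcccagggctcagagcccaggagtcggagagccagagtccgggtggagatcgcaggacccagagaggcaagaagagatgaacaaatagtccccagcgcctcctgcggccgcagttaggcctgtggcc
Hoxd8, chr2:74704365-74704614: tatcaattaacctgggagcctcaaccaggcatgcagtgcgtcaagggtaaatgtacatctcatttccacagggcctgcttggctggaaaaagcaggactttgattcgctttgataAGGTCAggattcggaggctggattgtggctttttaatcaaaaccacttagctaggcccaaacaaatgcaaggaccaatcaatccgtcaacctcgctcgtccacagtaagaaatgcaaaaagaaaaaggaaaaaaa
Hoxd1, chr2:74762730-74762979: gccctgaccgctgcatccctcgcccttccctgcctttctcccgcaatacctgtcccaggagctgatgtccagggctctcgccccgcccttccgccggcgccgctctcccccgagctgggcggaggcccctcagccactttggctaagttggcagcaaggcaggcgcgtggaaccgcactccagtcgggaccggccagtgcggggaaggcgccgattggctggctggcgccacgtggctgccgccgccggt
The Hoxd13 stretch held 31 CpG dinucleotides, as many as or more than 95.4% of the 32851 stretches of the same length in the RefSeq table, whose median was 6. Hoxd1 held 24, Hoxd9 held 13 and Hoxd8 held 6. Only the Hoxd13 sequence of these 4 had a TATA box, read on both strands in overlapping letters, against 12.4% of all stretches with at least 1, and only Hoxd8 had the core motif, against 14% of all. All 9 members were matched, with 10 stretches in total. Among those not shown, Hoxd3, Hoxd4 and Hoxd10 also had the core motif, and Hoxd4 a TATA box. The pair of core motifs 5 bases apart that is known from retinoic acid targets was in none of the 10 and in 0.00913% of all. Such matches describe letters and were not tested as binding sites.

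Depth ran from 15361598 to 29614420 counts per mESC library and from 15612700 to 31338825 per ATRA library. Levels are CPM, counts scaled to library size after TMM normalisation, so that 3 counts correspond to between 0.0918 and 0.198 CPM in a library. Ezh2 averaged 280 CPM in het, 439 in WT and 360 in A733T in mESC, and 238, 362 and 275 in ATRA, and the 4 Weaver lines lay between 383 and 424 CPM in ATRA. The 7 stem cell markers summed to between 3134 and 4001 CPM in mESC and between 493 and 812 in ATRA, and Cyp26a1, an enzyme that degrades retinoic acid and is induced by it, rose from at most 0.138 CPM in the mean of any mESC group to at least 317 in any ATRA group. Replicate 3 of A677T in mESC and replicate 3 of K634E in ATRA are called the libraries that stand apart. In the dependence of counts on GC content they had Spearman correlations across genes of -0.60 and -0.62, the lowest of their states. The trait was not particular to them. Replicate 3 of K563E in mESC (-0.46) also lay under its group (-0.049 and -0.086), as did replicate 3 of R679C in ATRA (-0.17, against 0.21 and 0.40). Whole lines also differed in mESC, where this correlation was 0.37 to 0.56 in WT, 0.033 to 0.34 in A733T and -0.60 to 0.044 in the 12 Weaver libraries, and mitochondrial genes took 1.48% to 1.81% of counts in WT and 2.34% to 2.595% in K634E. In ATRA this correlation was -0.62 to -0.17 in K634E and -0.47 to -0.15 in K563E. A677T had -0.39 to 0.075 there, and R679C and WT -0.17 to 0.40 and -0.16 to 0.40. The range was 0.20 to 0.23 in het, 0.16 to 0.36 in parental and 0.091 to 0.24 in A733T. The mESC calls of Hoxd13 described here held with a correction for GC content, and the part of the mitochondrial share was not tested. In these bulk samples, fewer cells that express a gene and less RNA per cell cannot be told apart.

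In undifferentiated cells the cluster was nearly silent. Hoxd13 was the exception, with 2 to 35 counts in each of the 24 mESC libraries (median 0.375 CPM, 0.0877 to 1.73). Hoxd1 had 51 counts in the 24 libraries together, Hoxd9 had 50, Hoxd8 had 31, Hoxd4, Hoxd10 and Hoxd11 had 5 each, Hoxd12 had 1 and Hoxd3 had none. For Hoxd3, 0 counts over 24 libraries allow a level of up to 0.00652 CPM. All 5 counts of Hoxd10 came from the A733T line, in each of its 3 libraries. At these depths Hoxd13 was the only member that passed the filter on low counts in mESC, so it is the only member with a test in that state.

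After ATRA, transcripts of every member were found, and the cluster was led from its outer ends. Hoxd1 had 1429 counts over the 24 ATRA libraries (median 2.43 CPM, 1.11 to 7.55) and Hoxd13 had 1135 (median 2.32 CPM, 0.805 to 3.97). Hoxd8 had 301, Hoxd9 had 241, Hoxd3 had 195, Hoxd4 had 119, and Hoxd12, Hoxd11 and Hoxd10 had 32, 31 and 16. Together Hoxd1 and Hoxd13 made up 63.2% to 86.1% of the summed HoxD level in the ATRA groups.

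With all lines pooled, Hoxd1 stood 25.8-fold higher after ATRA than before (95% counting interval 19.5 to 34.8) and Hoxd13 4.21-fold higher (3.67 to 4.86), while Hoxd3 was at least 59.9-fold higher, set against 3 counts over the mESC libraries. The pooled ratio was 21.9 for Hoxd4 (9.13 to 68.7), 8.94 for Hoxd8 (6.17 to 13.4) and 4.44 for Hoxd9 (3.26 to 6.15). It was 5.71 for Hoxd11 (2.20 to 18.8) and 2.95 for Hoxd10 (1.03 to 10.3). Intervals cover counting error only, not the spread between libraries. For Hoxd12 it was 29.5 (4.92 to 1200), from 1 mESC count. In these pooled counts the ratio was higher for Hoxd1 and Hoxd3 than for Hoxd8, Hoxd9 and Hoxd13, beyond the intervals, while those of Hoxd4 and Hoxd8 overlapped. The lines weigh unequally in them, as A733T gave 29 of the 50 mESC counts of Hoxd9, and the order did not show in every line. In K563E the ratio was 13.04 for Hoxd1 (7.08 to 26.7) and 9.06 for Hoxd13 (5.70 to 15.2), and in K634E 23.0 (10.9 to 58.2) and 14.2 (6.94 to 33.7), with overlapping intervals. Hoxd8 and Hoxd9 had no mESC count in K563E, so only lower bounds of 7.43-fold and 2.91-fold can be given there, against 3 counts over the group.

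**Figure D1:**
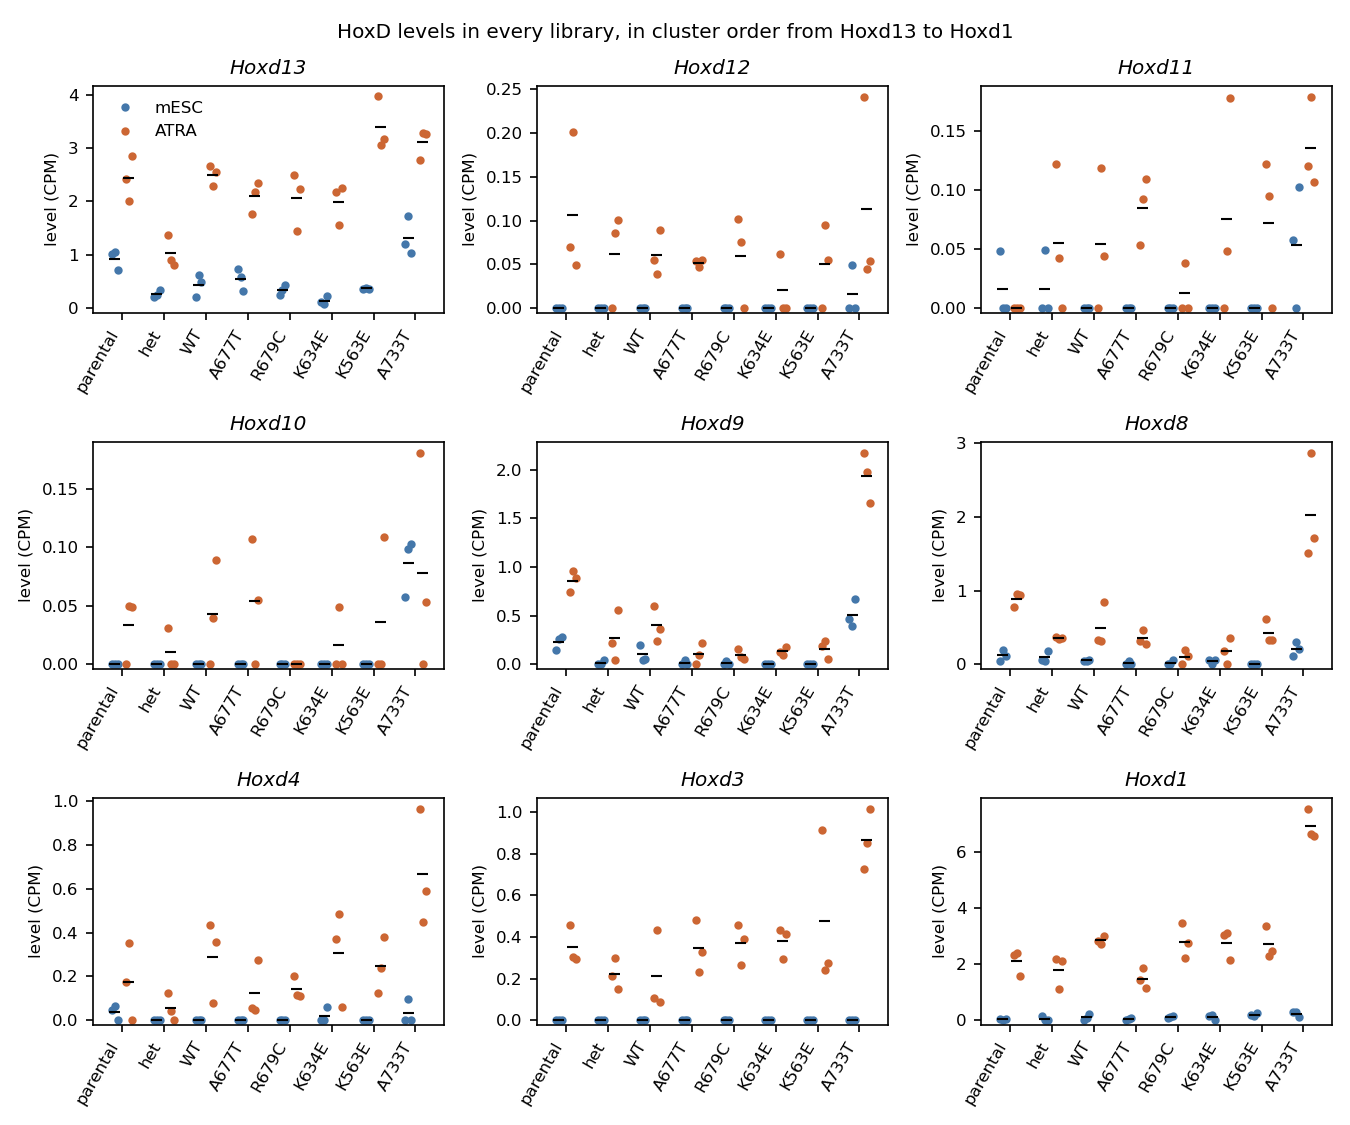
Level in CPM of each HoxD gene in every library, in cluster order, by line (horizontal axis) and state (blue, mESC; orange, ATRA), with group means as black bars. The vertical axes differ between panels; Hoxd13 is the only gene with counts in all 24 mESC libraries, and the ATRA libraries of A733T stand above every other line for Hoxd9, Hoxd8 and Hoxd1.

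Hoxd1, Hoxd3, Hoxd8, Hoxd9 and Hoxd13 passed the filter when both states were fitted together. All 5 were higher after ATRA in parental, het, WT, K563E and A733T, where 28.6%, 29.4%, 29.8%, 30.4% and 28.9% of all tested genes were higher. In A677T 4 were higher (29.1% of genes) and in K634E 4 (30%), with adjusted p = 0.143 for Hoxd9 in A677T and 0.074 for Hoxd8 in K634E. R679C had 3 of 5 (30.2% of genes), with adjusted p = 0.086 for Hoxd8 and 0.118 for Hoxd9. Hoxd1 rose by between 3.68 (SE 0.42, K563E) and 5.10 (SE 0.63, A677T) on the log2 scale in 7 lines and by 5.61 (SE 0.58) in parental. The het value, 5.06, rests on 3 mESC counts that are all in replicate 1, and without it the fitted value against 0 counts was 8.18. Over the 8 lines, Hoxd13 rose by between 1.23 (SE 0.24, A733T) and 3.78 (SE 0.39, K634E). Some calls rested on a single library: Hoxd8 in het stood at an adjusted p of 0.0766 without mESC het replicate 1 and 0.0823 without replicate 2, and Hoxd9 in WT at 0.0855 without mESC WT replicate 2, 0.063 without replicate 3 and 0.0879 without ATRA WT replicate 1. Without mESC R679C replicate 3, 5 members were called in R679C (adjusted p = 0.0365 for Hoxd8, with Hoxd4 then also tested).

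Hoxd13, the member used in the most posterior structures and in digits, differed between lines already in undifferentiated cells. It stood at 1.01, 1.05 and 0.722 CPM in the parental libraries and at 0.212, 0.246 and 0.347 in het, so the groups did not overlap. In WT it was 0.202, 0.619 and 0.498 CPM, and in A733T 1.21, 1.73 and 1.03, the highest mean of any line. K634E had the lowest, at 0.112, 0.0877 and 0.233 CPM, from 8 counts in all. A677T, R679C and K563E lay between, with means of 0.543, 0.344 and 0.371 CPM, and their libraries overlapped those of WT.

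In mESC, Hoxd13 was lower in het than in parental by 1.75 on the log2 scale (SE 0.41; edgeR adjusted p = 0.0123), with 2.26% of all tested genes lower in that comparison. The call was lost without parental replicate 1 (adjusted p = 0.0595) or 2 (0.055) and without het replicate 1 (0.0641) or 2 (0.064). WT stood 0.68 above het (SE 0.46; adjusted p = 0.373), with 12.1% of genes changed. A733T exceeded WT by 1.59 (SE 0.36; adjusted p = 0.00272) and het by 2.28 (SE 0.39; adjusted p = 0.000166), with 10.7% and 6.61% of genes higher, and in neither case did the libraries overlap. Against parental, A733T stood at 0.53 (SE 0.33; adjusted p = 0.371), with 7.92% of genes changed, and its libraries overlapped the parental range.

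Of the 4 Weaver variants in mESC, K634E had less Hoxd13 than WT, by 1.59 (SE 0.53; adjusted p = 0.0259; 14.8% of genes lower), although the libraries overlapped. That call did not hold without WT replicate 2 (adjusted p = 0.133) or 3 (0.079), without K634E replicate 1 (0.0624) or 2 (0.14), or with no filter on low counts (0.0613). A677T, R679C and K563E were not called against WT (0.34, -0.30 and -0.21, adjusted p = 0.528, 0.657 and 0.746; 44.6%, 23.7% and 34.5% of genes changed). The equal-weight mean of the 4 stood at -0.44 against WT (SE 0.35; adjusted p = 0.318; 44.4% of genes changed) and at 0.24 against het (SE 0.40; adjusted p = 0.638; 51.1% changed). A733T exceeded that mean by 2.04 (SE 0.28; adjusted p = 7.56e-07; 26.8% of genes higher).

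Hoxd9, known from the axial skeleton and the forelimb, had too few counts for a test in mESC but followed a similar order of lines. A733T had 8, 8 and 13 counts and parental 3, 4 and 5, while WT had 4, 1 and 1. In the other 5 lines no library had more than 1 count, and K634E and K563E had none. The A733T libraries (0.46, 0.394 and 0.669 CPM) did not overlap those of any other line. When no filter was applied, Hoxd9 was higher in A733T than in het by 4.52 on the log2 scale (edgeR adjusted p = 0.00201) and lower in the Weaver mean than in WT by 3.11 (adjusted p = 0.0139), both against groups near 0 counts. Even with no filter, Hoxd9 was not called in A733T against WT or parental, or in het against parental.

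**Figure D2:**
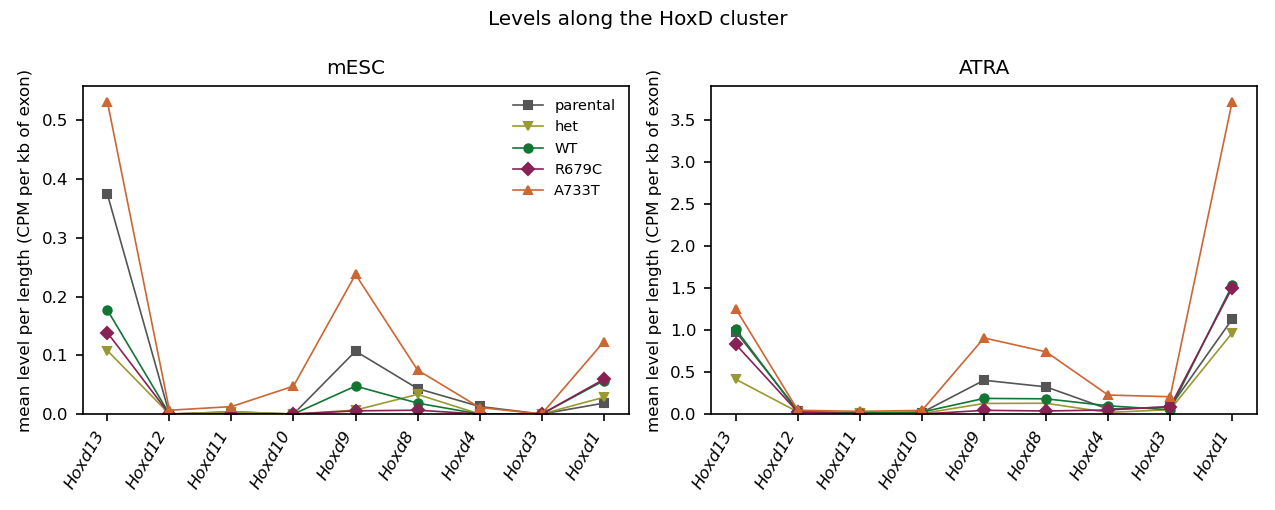
Mean level per length (CPM per kb of exon, vertical axis) along the cluster from Hoxd13 to Hoxd1 for 5 lines, in mESC (left) and ATRA (right), with 3 libraries behind each point and separate vertical scales. In ATRA both ends of the cluster stand out, and Hoxd9 and Hoxd8 stand out in A733T but not in R679C. A733T reaches 3.72 CPM per kb at Hoxd1 against 1.53 in WT.

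Per length, the ATRA profile of WT ran from 1.01 CPM per kb of exon at Hoxd13 through 0.0241 at Hoxd12, 0.0129 at Hoxd11 and 0.0237 at Hoxd10 to 0.186 at Hoxd9 and 0.181 at Hoxd8, and then from 0.0987 at Hoxd4 and 0.0504 at Hoxd3 to 1.53 at Hoxd1. A733T had 1.25 CPM per kb at Hoxd13, 0.907 at Hoxd9, 0.741 at Hoxd8, 0.227 at Hoxd4, 0.206 at Hoxd3 and 3.72 at Hoxd1. In both lines the 3 genes next to Hoxd13 were the lowest of the cluster. Hoxd3 shares 2613 of its 4191 exon bases with Hoxd4 and the transcript Gm28230 on the same strand and 368 bases with antisense transcripts, and Hoxd4 shares 1542 of its 2948, so reads of Hoxd3 and Hoxd4 may have been split or dropped in counting. Per kb of exon that no other gene shares, Hoxd3 and Hoxd4 stood at 0.556 and 0.475 CPM in A733T and at 0.136 and 0.207 in WT, which puts Hoxd4 over Hoxd9 and Hoxd8 in WT. Hoxd1, Hoxd8, Hoxd9, Hoxd12 and Hoxd13 share no exon bases with another annotated gene.

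The highest summed HoxD level after ATRA was that of A733T, which also had the highest mean of 8 of the 9 members. Hoxd13 was the exception, with 3.398 CPM in K563E and 3.11 in A733T, and their libraries overlapped. In A733T the means of Hoxd10, Hoxd11 and Hoxd12 rested on 4, 8 and 6 counts, and parental had 7 counts of Hoxd12. For these members and for Hoxd3 and Hoxd4, the A733T libraries overlapped those of the line with the next highest mean. The summed level of the 9 genes was 15.9 ± 0.71 CPM (SD, n = 3) in A733T, with 15.1 to 16.3 in its libraries. WT reached 6.92 ± 0.58, parental 6.95 ± 0.29, K563E 7.57 ± 1.5, K634E 5.88 ± 0.45, R679C 5.64 ± 1.2, A677T 4.71 ± 0.38 and het 3.85 ± 0.90 CPM. No A733T library overlapped one of another line, whose highest was 9.28 CPM in K563E. In mESC the sum was 2.45 ± 0.44 CPM in A733T, 1.37 ± 0.21 in parental and at most 0.83 CPM in any library of the remaining lines.

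**Figure D3:**
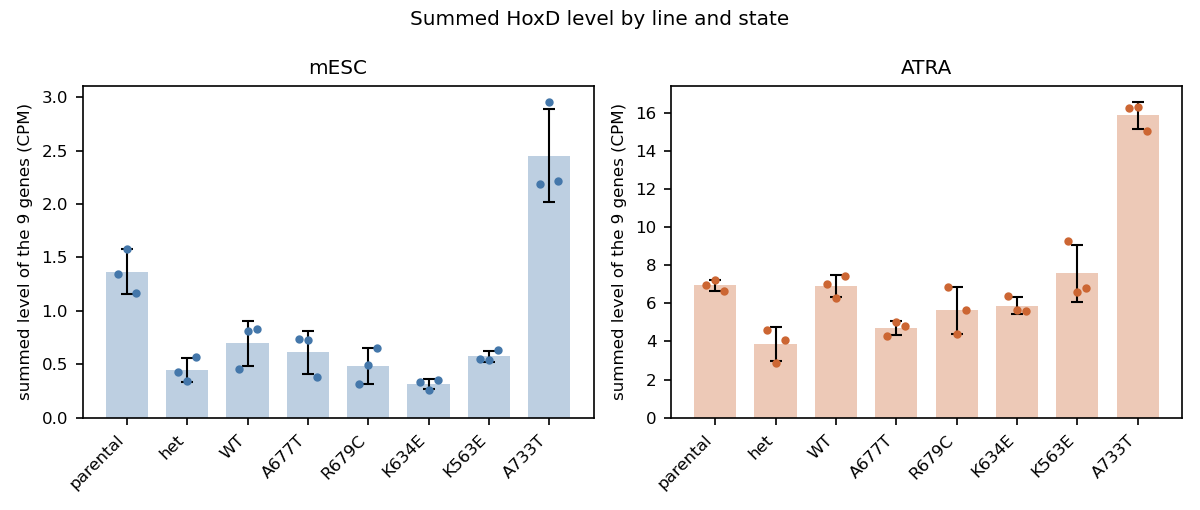
Summed level of the 9 HoxD genes in CPM by line, in mESC (left) and ATRA (right), on separate scales that start at 0. Bars are means of 3 libraries, error bars are SDs and points are libraries; A733T is highest in both states, at 2.45 and 15.9 CPM.

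Hoxd1, which acts early and anteriorly, stood at 7.55, 6.65 and 6.59 CPM in the A733T libraries after ATRA and at 2.84, 2.73 and 2.997 in WT. Parental had 2.32, 2.41 and 1.58 CPM, and het 2.17, 1.11 and 2.11. The A733T libraries lay above all 21 others, and the 7 lines under it in order of mean, from WT at 2.85 to A677T at 1.49 CPM, each overlapped the next in that order. Hoxd9 stood at 2.17, 1.98 and 1.66 CPM in A733T, at 0.738, 0.955 and 0.888 in parental, and at 0.600, 0.237 and 0.358 in WT. Of the 9 members, only Hoxd9 had parental libraries that lay under those of A733T and over those of every other line. Hoxd8, expressed in the trunk and its neural tube, showed 1.51, 2.87 and 1.71 CPM in A733T, 0.327, 0.316 and 0.850 in WT and 0.773, 0.955 and 0.937 in parental. Hoxd3, known from the upper neck vertebrae, was 0.725, 0.853 and 1.02 CPM in A733T and 0.109, 0.435 and 0.0895 in WT, and Hoxd13 2.78, 3.28 and 3.27 in A733T and 2.67, 2.29 and 2.55 in WT.

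Against WT after ATRA, 4 of the 5 tested members were higher in A733T, and 10.4% of all tested genes were. Hoxd9 was higher by 2.31 on the log2 scale (SE 0.43; adjusted p = 0.000379), Hoxd8 by 2.03 (SE 0.42; adjusted p = 0.00115), Hoxd3 by 1.93 (SE 0.50; adjusted p = 0.00698) and Hoxd1 by 1.28 (SE 0.21; adjusted p = 7.44e-05), with no overlap of libraries. Hoxd13 stood at 0.32 (SE 0.21; adjusted p = 0.323). The median over the 5 was 1.93, beside 0.02 over all genes tested. WT libraries set some of the sizes: without WT replicate 3, whose Hoxd8 was highest of the 3, Hoxd8 stood at 2.66 and Hoxd3 lost its call (adjusted p = 0.0535), and without WT replicate 2 Hoxd3 stood at 3.06.

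The other lines gave A733T further comparisons, which share its 3 libraries. All 5 tested members were higher than in het (9.06% of genes higher), from 1.55 for Hoxd13 (SE 0.23; adjusted p = 1.61e-05) to 2.90 for Hoxd9 (SE 0.45; adjusted p = 3.09e-05), the latter 3.73 without het replicate 3. Against parental (7.67% of genes higher), Hoxd1 was higher by 1.70 (SE 0.21; adjusted p = 1.18e-06), Hoxd8 by 1.22 (SE 0.39; adjusted p = 0.0312) and Hoxd9 by 1.17 (SE 0.38; adjusted p = 0.0345), while Hoxd3 stood at 1.25 (adjusted p = 0.0609) and Hoxd13 at 0.35 (adjusted p = 0.287). The Hoxd9 call against parental was lost without any 1 of the 6 libraries (adjusted p from 0.0579 to 0.133) and in DESeq2 (0.0558). The Hoxd8 call was lost without parental replicate 1 (0.121), 2 (0.076) or 3 (0.0748) or A733T replicate 2 (0.243).

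Against the mean of the 4 Weaver variants, A733T had more of all 5, where 27% of genes were higher. Hoxd9 differed by 3.94 (SE 0.36; adjusted p = 5.69e-10), Hoxd8 by 3.13 (SE 0.34; adjusted p = 1.43e-08), Hoxd1 by 1.55 (SE 0.15; adjusted p = 3.75e-09), Hoxd3 by 1.17 (SE 0.35; adjusted p = 0.00659) and Hoxd13 by 0.43 (SE 0.17; adjusted p = 0.0346). Hoxd3 was not called without A733T replicate 3 (adjusted p = 0.0527). Hoxd13 lost its call without A733T replicate 2 (0.14) or 3 (0.135), R679C replicate 2 (0.05003), K634E replicate 2 (0.0656) or A677T replicate 1 (0.0527), in DESeq2 (0.0513) and with no filter (0.0723). Without A733T replicate 3 the count fell to 3.

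**Figure D4:**
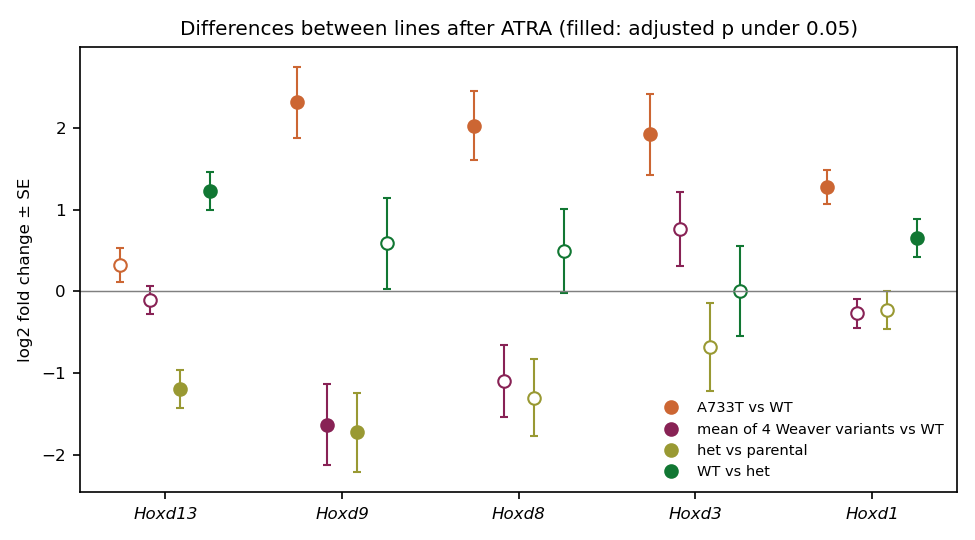
Differences after ATRA as log2 fold changes (vertical axis, error bars 1 SE) for the 5 tested members, for A733T, the mean of 4 Weaver variants and het compared as the legend states, with filled points at an adjusted p under 0.05. Hoxd9 stands at 2.31 for A733T and -1.63 for the Weaver mean, both against WT, while Hoxd13 differs in het against parental (-1.20) and WT against het (1.23).

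The mean Hoxd9 level after ATRA was lower in each Weaver line than in WT. None of the 4 was called by itself (edgeR adjusted p from 0.0638 to 0.1865). Hoxd9 counts were 0, 2 and 4 in A677T, 3, 2 and 1 in R679C, 2, 2 and 3 in K634E and 3, 5 and 1 in K563E, against 11, 6 and 8 in WT. Only K563E overlapped WT, by 1 library at 0.239 against 0.237 CPM. The mean of the 4 was lower than WT by 1.63 (SE 0.49; adjusted p = 0.018), the only call among the 5 tested members in a comparison with 12.1% of genes lower. Without WT replicate 1, which had the most Hoxd9 in its group, the adjusted p was 0.17. Against het, the Weaver mean of Hoxd9 stood at -1.04 and was not called (SE 0.52; edgeR adjusted p = 0.105).

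For the other members the Weaver mean stood at -1.10 for Hoxd8 (SE 0.44; adjusted p = 0.0794), 0.76 for Hoxd3 (SE 0.45; adjusted p = 0.259), -0.27 for Hoxd1 (SE 0.18; adjusted p = 0.309) and -0.11 for Hoxd13 (SE 0.17; adjusted p = 0.714). The median over the 5 was -0.27, beside -0.0021 over all genes tested. Hoxd8 was called in DESeq2 (adjusted p = 0.04996), without R679C replicate 2 (0.0436) and without K634E replicate 3, the library that stands apart (0.0302), and Hoxd3 was called higher without WT replicate 2 (1.90, adjusted p = 0.0462). The Hoxd8 difference ranged from -1.37 to -0.47 as single libraries were left out, the smallest without WT replicate 3. The A733T difference from WT had the opposite sign to that of the Weaver mean for Hoxd9, Hoxd8, Hoxd1 and Hoxd13, but only Hoxd9 was called in both.

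Each Weaver variant by itself gave at most 1 call. A677T had less Hoxd1 than WT, at 1.45, 1.86 and 1.15 CPM against at least 2.73, by 0.93 (SE 0.24; adjusted p = 0.00723; 11.1% of genes lower), with an adjusted p of 0.0512 without A677T replicate 3. R679C had less Hoxd8, at 0, 0.190 and 0.112 CPM, by 2.14 (SE 0.67; adjusted p = 0.0385; 5.45% of genes lower). This call was lost without WT replicate 3 (-1.505, adjusted p = 0.257) or R679C replicate 1 (0.151) or 3 (0.0767), and the difference was -3.09 without R679C replicate 2. No member was called in K634E (15% of genes changed) or K563E (20.5%), in edgeR or in DESeq2. At an unadjusted p under 0.05 edgeR had 2 in K634E, Hoxd8 and Hoxd9, and 1 in K563E, Hoxd13, and Hoxd3 was called higher in K563E without WT replicate 2 (2.15, adjusted p = 0.0401). Hoxd9 stood at -1.84 in A677T (adjusted p = 0.0638), -1.96 in R679C (0.0723), -1.501 in K634E (0.136) and -1.22 in K563E (0.186), and Hoxd8 at -0.48, -2.14, -1.52 and -0.26 in the same order. Hoxd13 stood at 3.97, 3.06 and 3.16 CPM in K563E, over every WT library, with a difference of 0.44 (SE 0.21; edgeR adjusted p = 0.143). The R679C difference in Hoxd9 passed with a correction for GC content (adjusted p = 0.0427), and that in A677T without A677T replicate 3 (-2.81, adjusted p = 0.0347).

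Het cells had less Hoxd13 than parental cells after ATRA as well. The libraries held 2.42, 2.01 and 2.86 CPM in parental, 1.378, 0.898 and 0.805 in het, and 2.67, 2.29 and 2.55 in WT. Het stood below every other line, without overlap. Against parental, Hoxd13 was lower in het by 1.20 (SE 0.23; adjusted p = 0.00113) and Hoxd9 by 1.73 (SE 0.49; adjusted p = 0.0279), which are 2 of 5 members where 4.05% of genes were lower. Hoxd8 stood at -1.30 (adjusted p = 0.111) with no overlap of libraries, Hoxd3 at -0.68 (adjusted p = 0.606) and Hoxd1 at -0.23 (adjusted p = 0.726). The Hoxd9 call was lost without parental replicate 1 (adjusted p = 0.0508), 2 (0.098) or 3 (0.0779) or het replicate 1 (0.156) or 2 (0.172), and the difference was -2.56 without het replicate 3.

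WT cells, which are het cells with added wild-type EZH2, had more Hoxd13 than het, by 1.23 (SE 0.23; adjusted p = 0.000447), and more Hoxd1, by 0.66 (SE 0.23; adjusted p = 0.0491), which are 2 of 5 members where 7.64% of genes were higher. The Hoxd1 call was lost without het replicate 2 (0.41, adjusted p = 0.274) or 3 (0.0605) and without WT replicate 1 (0.102), 2 (0.0757) or 3 (0.142). Hoxd9, Hoxd8 and Hoxd3 stood at 0.59, 0.49 and 0.01 (adjusted p = 0.526, 0.578 and 0.997). The Weaver mean also had more Hoxd13 than het, by 1.13 (SE 0.20; adjusted p = 2.93e-05; 20.8% of genes higher), and of the 5 only Hoxd13 was called there. Without het replicate 2, Hoxd9 was also called, as lower (-1.52, adjusted p = 0.0203), and with the GC correction Hoxd1 was, as higher (0.51, adjusted p = 0.0162). In these comparisons Ezh2 itself was lower in het than in parental by 0.23 (SE 0.057; adjusted p = 0.0109) and higher in WT than in het by 0.61 (SE 0.057; adjusted p = 1.53e-08). Ezh2 was also lower in A733T than in WT, by 0.40 in ATRA (edgeR adjusted p = 1.47e-05) and 0.26 in mESC (0.00676). It was higher in the Weaver mean than in WT, by 0.18 in ATRA (0.00422) and 0.29 in mESC (0.000112). In mESC, Ezh2 in het was not called against parental (-0.11, edgeR adjusted p = 0.562). The part of Ezh2 levels in the HoxD differences was not tested.

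The remaining 4 members stayed under the filter in both states. Hoxd4, known from the hindbrain and neck, came nearest, with 16, 10 and 11 counts in A733T after ATRA (0.967, 0.449 and 0.589 CPM), 8, 2 and 8 in WT, 5, 7 and 0 in parental and 4, 1 and 0 in het. With no filter on low counts, Hoxd4 in A733T exceeded het by 3.21 (edgeR adjusted p = 0.000177), the Weaver mean by 1.73 (adjusted p = 0.000787) and parental by 1.85 (adjusted p = 0.0357), but it was not called against WT. Hoxd10, Hoxd11 and Hoxd12, which pattern limbs and the posterior axis, had at most 3, 4 and 4 counts in any ATRA library, and none was called between lines in ATRA with no filter. Hoxd11 had 2, 4 and 2 counts in A733T and 0 in each parental library. In mESC, Hoxd10 was called higher in A733T than in the Weaver mean with no filter (3.83, edgeR adjusted p = 0.0121), from 5 counts.

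Whether the differences from WT depended on the state was tested with an interaction term, and no member was called by edgeR or DESeq2 for A733T (3.17% of genes changed) or for the Weaver mean (7.07%). Hoxd3 had no counts in mESC, so its term cannot show whether the state matters. Hoxd1, Hoxd8 and Hoxd9 had 6, 3 and 6 mESC counts in WT, so their tests could detect little. Hoxd13 had the lowest p, with an A733T difference from WT that was lower in ATRA than in mESC (-1.26 on the log2 scale; edgeR adjusted p = 0.0692). This was the only member with an unadjusted p under 0.05 in either test. Without mESC WT replicate 2 it was called (-1.61, adjusted p = 0.0395).

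Other genes of the region and family were read beside the members. Of 14 neighbouring genes 5 were tested in ATRA, and of these only Haglr, a long noncoding RNA that starts beside Hoxd1 on the opposite strand, was higher in A733T than in WT, by 1.09 (SE 0.19; adjusted p = 0.000138). Haglr stood at 4.10 ± 0.31 CPM in A733T, 1.91 ± 0.32 in WT and 1.19 ± 0.20 in het (SD, n = 3), and was higher in WT than in het by 0.67 (SE 0.21; adjusted p = 0.0243). Haglr shares 281 exon bases with genes on the opposite strand, Hoxd3 among them, and none with Hoxd1. As no source used here gives the strandedness of the counts, reads from such shared bases cannot be told apart. Mtx2, which lies beyond Hoxd1 and encodes a mitochondrial protein, was 38.5 CPM in A733T and 43.6 in WT.

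Among 20 paralogues of the members in the HoxA, HoxB and HoxC clusters, 16 were tested in ATRA. In A733T against WT, 9 were higher and 1, Hoxa10, was lower (median 0.44), where 10.4% of all tested genes were higher. Hoxc9 was higher by 2.86 (SE 0.53; adjusted p = 0.000389), Hoxc8 by 2.58 (SE 0.48; adjusted p = 0.000402) and Hoxb9 by 1.41 (SE 0.08; adjusted p = 2.94e-12). In the Weaver mean against WT none was higher and 5 were lower, Hoxb9 by 1.06 (adjusted p = 1.07e-12) and Hoxb8 by 0.65 (adjusted p = 1.64e-08) among them (median -0.29). Of all tested genes, 12.1% were lower in that comparison. In WT against het 8 were higher and none lower (median 0.39), with 7.64% of all tested genes higher. In het against parental 2 were higher, Hoxa3 and Hoxa10, and 1 lower, Hoxb9. Of all tested genes 4.05% were lower in that comparison, and the share that was higher is not given here. Hoxb13 and Hoxc13, the paralogues of Hoxd13 that were tested and called there, were among the 9 higher in A733T.

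Among known regulators and partners of Hox genes, Cdx1, Cdx2, Meis1 and Meis2 were higher in A733T than in WT after ATRA. Cdx2, a factor of the posterior embryo, stood at 13.5 ± 0.54 CPM in A733T, 4.25 ± 0.40 in WT, 3.56 ± 0.25 in parental and 1.43 ± 0.25 in het (SD, n = 3). In the Weaver mean against WT, Cdx1, Cdx2 and Cdx4 were lower and Meis1 and Meis2 were higher. Among genes of the retinoic acid response, Cyp26a1 and Crabp2 were higher in A733T than in WT.

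Markers of other cell types moved with several of these comparisons. In mESC, Gata4, the only tested endoderm marker of 5, was higher in A733T than in WT and het and lower in het than in parental and in K634E than in WT, as Hoxd13 was. The 5 summed to 4.94 to 5.87 CPM in A733T, 4.19 to 5.17 in parental, 1.57 to 2.93 in WT, 1.96 to 1.99 in het and 0.583 to 0.833 in K634E. In K563E they summed to 0.787 to 0.95 CPM, also under WT, but Hoxd13 was not called there (-0.21 against WT, edgeR adjusted p = 0.7465). Of 8 mesoderm markers 4 were tested in mESC, and Eomes was lower in A733T than in WT (sums of 23.7 to 27.4 and 48.6 to 53.0 CPM) and higher in het than in parental (27.7 to 31.3 and 20.7 to 24.1 CPM). Of 5 tested fibroblast markers, 3 were higher and 1 lower in A733T than in WT in mESC, with sums of 56.0 to 61.2 and 58.9 to 63.9 CPM, and 1 of 3 tested neural markers, Nes, was higher (22.4 to 26.7 and 16.1 to 18.2 CPM). In A733T against WT after ATRA, 3 of 7 tested fibroblast markers were higher and 1 lower (12 markers summing to 109 to 118 CPM in A733T and 104 to 127 in WT), 3 of 5 neural markers were higher (6 summing to 140 to 149 and 119 to 136 CPM), 2 of 6 mesoderm markers were higher and 1 lower (8 summing to 15.5 to 18.4 and 16.0 to 18.4 CPM), and 1 of 4 endoderm markers, Gata6, was lower (5 summing to 111 CPM in each A733T library and 127 to 130 in WT). No marker on these lists was at 0 counts in A733T, and Lum and Postn, fibroblast markers, were in WT. In the Weaver mean against WT after ATRA all 4 tested endoderm markers were lower (51.9 to 74.4 CPM in the 12 Weaver libraries). There 2 of 5 tested neural markers, Nes and Pax6, were higher, with sums of 175 to 184 CPM in K563E, 142 to 166 in R679C, 126 to 148 in K634E and 108 to 114 in A677T. Of 7 tested fibroblast markers 3 were lower, and none of 6 tested mesoderm markers was called. In WT against het after ATRA all 4 tested endoderm markers were higher (75.9 to 85.2 CPM in het). Beside these counts, 10.7% of all tested genes were higher in A733T than in WT in mESC and 10.4% in ATRA. After ATRA, 12.1% were lower in the Weaver mean than in WT and 7.64% higher in WT than in het. The shares of genes that moved in the opposite directions are not given here. The part of the markers in the HoxD differences was not tested.

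By the correlation of log2 CPM over the 24 ATRA libraries, the genes most like Hoxd1 were Dlk1 (Pearson r = 0.896), Hoxb8 (0.89) and Madd (0.888), and those most like Hoxd9 were Dsp (0.925), Ahnak (0.898) and Ppp2r2c (0.897). Hoxd8 was most like Foxc1 (0.857), Fbp1 and Foxe1 (both 0.839), and Hoxd13 was most like H19 (0.832), Nek4 (0.816) and Rbm46 (0.787). No gene was shared between these lists of 3. The 24 libraries fall into 8 lines of 3, so these values describe mostly differences between lines and carry no p.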

How the data were processed

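Poly(A) RNA was sequenced in 54 samples. The authors deposited raw counts per gene for 55401 versioned Ensembl IDs, without normalisation. The genome mm10 and the tools STAR 2.7.3a, cutadapt 3.2, DESeq2 1.38.3 and featureCounts 1.6.4 are named per the submitters' processing notes, which give them no role. The sources used here state neither the strandedness nor how multi-mapping reads were handled. Symbols, positions and exon lengths came from GENCODE M21, which held 55141 of the IDs, and promoters from RefSeq. Of 54 count columns, 6 fit no label and were not used, so Y728 is not analysed here and the Weaver mean weights A677T, R679C, K634E and K563E equally.

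Counts were tested with edgeR 4.0.16 in R 4.3.3 (filterByExpr, TMM, robust quasi-likelihood), per state over 24 libraries with 16 residual degrees of freedom, and over 48 libraries for comparisons between states. The p-values were adjusted by the Benjamini-Hochberg method across every gene tested in a comparison, and a gene is called at an adjusted p under 0.05. Of 34 comparisons, 4 (A733T against parental and against the Weaver mean) were added after seeing the data. All 9 members are named. The most similar genes are the 3 with the highest correlation for members with at least 1 CPM in an ATRA group. Members, lists and tests were chosen with earlier results of these data known. Some genes of the lists of regulators and of the retinoic acid response are not reported here. Tests were tried on simulated data. Alternatives were DESeq2 1.42.0, RLE factors, no filter, a GC correction, a replicate block, leaving out each library, and leaving out the libraries that stand apart. Same-numbered libraries did not meet the rule for pairing, a correlation over 0.1 in every pair. Intervals and floors cover counting error only.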

Additional observations from a re-analysis of the deposited data

How the results depend on the processing

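None of the called differences given for HoxD genes changed sign under the alternatives run. Counts of HoxD genes called moved by over 1.5 times as follows. With no filter on low counts, 0 were called in mESC K634E against WT, 1 in the Weaver mean against WT (Hoxd9), 2 in A733T against het and 4 in A733T against the Weaver mean (Hoxd8, Hoxd9, Hoxd10 and Hoxd13), and more members entered the test there. With the GC correction, alone or with the replicate block, 2 were called in ATRA R679C against WT and 2 in the Weaver mean against het. DESeq2 called 2 in the ATRA Weaver mean against WT, as did the fit without the libraries that stand apart, chosen after seeing the data. Smaller moves came from Hoxd4, which with no filter was called in A733T against het, parental and the Weaver mean and in ATRA against mESC in WT and the 5 variants, and from Hoxd3, called in A733T against parental with the GC correction (adjusted p = 0.0397, 0.0281 with the block). The cause of these changes was not tested.

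Leaving out each library in turn, the count ranged from 0 to 1 in K634E against WT and in het against parental in mESC. In ATRA it ranged from 0 to 1 in R679C and in K563E against WT, from 0 to 2 in the Weaver mean against WT, from 1 to 2 in het against parental, in WT against het, in the Weaver mean against het and in A733T against parental, and from 3 to 6 in A733T against the Weaver mean, where Hoxd4 entered the test. It ranged from 3 to 5 in ATRA against mESC in R679C and from 0 to 1 in the interaction of A733T with state. Moves of 1 call were seen in A733T against WT (3 to 4) and het (5 to 6) and in ATRA against mESC in het and A677T (4 to 5) and WT and A733T (5 to 6), while K634E had 5 and K563E 6 in each such fit, against 4 and 5 with all libraries. The added call was Hoxd4, which was not tested with all libraries, in each K563E fit. In K634E it was also Hoxd4, except without ATRA K634E replicate 2, where it was Hoxd8. Differences that were not called changed sign in some of these fits: Hoxd13 in mESC ranged from 0.00 to 0.70 in A677T, from -0.65 to 0.049 in R679C and from -0.56 to 0.14 in K563E, all against WT. In ATRA, Hoxd8 ranged from -0.75 to 0.15 in A677T and from -0.59 to 0.37 in K563E against WT and from -0.14 to 0.76 in WT against het, Hoxd1 from -0.41 to 0.016 in het against parental and Hoxd3 from -1.13 to 0.37 in WT against het, the last at -0.009 with no filter.

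The replicate block gave 4 HoxD genes called in A733T against WT after ATRA, as without it, and called Hoxd3 in A733T against parental (1.30, adjusted p = 0.0376), with no other call changed. The replicate numbers correlated over 0.1 in 27 of 84 same-numbered pairs in mESC and 31 of 84 in ATRA, and 9 and 17 of 24 libraries correlated best with their own number, which for ATRA is a hint of pairing from the data and not from the design (median 0.0634 for same-numbered and -0.0318 for other pairs). Per kb of the longest transcript, Hoxd3 in A733T stood at 0.291 CPM. Counts of Hoxd4, Hoxd10, Hoxd11 and Hoxd12 limit any statement on them.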
